A study of Rattus norvegicus with 9 samples.

Results

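The cytosolic ribosomal protein genes of rat NRK-49F cells were followed in cells held in TGF-β1 with a test compound or with vehicle. Members were the gene models of the deposited table whose symbol begins with Rpl or Rps and a number, or is Rplp0, Rplp1, Rplp2 or Rpsa, with the S6 kinase genes left out and an estimated count above 0 in at least 1 library. The symbol pattern matched 99 models, of which 12 had no count in any library, and the remaining 87 of the 22050 gene models were the members. They comprised 51 models of the large subunit, 35 of the small subunit and Rps19bp1, whose symbol fits the pattern but whose product is a binding partner of the RPS19 protein and not a ribosomal protein. These 87 models carried 82 distinct symbols.

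NRK-49F is an established line of rat kidney fibroblasts, described in the labels as wild type. The groups were cells treated with YEXX-2A in the presence of TGF-β1, cells treated with YWCH-4A in its presence and cells that had TGF-β1 and vehicle, with 3 libraries each. All 3 groups thus share TGF-β1, given for 48 h per the labels' protocols, and unstimulated cells were not analysed here. The labels give no dose or timing of either compound, and both are known here by code name alone. Nothing in the labels says that the libraries of a group came from separately grown cultures, so each p-value rests on a spread between libraries that may be technical.

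A cytosolic ribosome is built from a small subunit, which holds the mRNA and reads its codons, and a large subunit, which joins the amino acids, and each protein is normally present as a single copy per subunit apart from the acidic stalk proteins. The mRNAs of these proteins begin with a run of pyrimidines, the terminal oligopyrimidine tract (TOP), through which their translation is coupled to mTOR signalling, and most are long-lived and abundant. In fibroblasts, ribosome production is known as part of growth responses. These statements are background and not results of the data.

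Total estimated counts per library ran from 13675880 to 21923706. Levels across libraries are given as CPM, counts scaled to a common library size with TMM factors, and levels between genes as the authors' FPKM, which is per kilobase of gene model. The members held 3.37 to 3.64% of all counts in the YEXX-2A libraries, 3.799 to 4.002% in the YWCH-4A libraries and 2.78 to 3.15% in the vehicle libraries. Vehicle replicate 2 stood apart from the other libraries, and the biological coefficient of variation over all genes was 7.34% among YEXX-2A libraries, 3.67% among YWCH-4A libraries and 16.7% among vehicle libraries, or 4.69% among the vehicle libraries without replicate 2. Of the fibroblast markers, 7 of 9 in the table reached 1 CPM in some library, Thy1 and Dcn did not, and markers of leukocytes, epithelium and endothelium reached it in 1 of 7, 2 of 10 and 1 of 6 cases. In bulk RNA, a change in the number of cells of a type and a change in the RNA per cell cannot be told apart.

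Most members were among the most abundant mRNAs of these cells, with a wide range between them. Of the 87, 80 had enough counts to be tested among 11473 genes, namely 47 large subunit models, 32 small subunit models and Rps19bp1. Per length, the highest large subunit levels were those of Rplp0, the base of the ribosomal stalk (mean 2363 FPKM over 9 libraries), Rpl19 (1429 FPKM) and Rplp1, an acidic stalk protein (1163 FPKM). The highest small subunit levels were those of Rps2 (2332 FPKM), Rpsa, also known as the laminin receptor (1598 FPKM), and Rps18 (1127 FPKM). The lowest tested members were the second model named Rpl32, at 17.9 FPKM, and Rps18l1, at 1.62 FPKM. The other 7 models (Rpl38, Rpl39, Rpl39l, Rpl3l, Rps15al4, Rps29 and Rps4y2) had estimated counts of 4.28 or fewer in every library, except Rpl39, which had 31.21 in YEXX-2A replicate 3, 74.40 in vehicle replicate 2 and 1.37 or fewer elsewhere.

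The start of the transcript is shown for 8 members, picked from those with the highest levels and from those called in either direction. Each sequence is the 30 bases centred on the annotated start in RefSeq (assembly GRCr8), 5′ to 3′ on the gene's own strand. The first 15 bases lie before the annotated start and the last 15 begin at it. Capitals mark the longest unbroken run of C or T in the window.
Rplp0: gaccgcaccgcaCTTCTCTCgccaggcgtc
Rpl19: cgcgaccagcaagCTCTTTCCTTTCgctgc
Rpl9: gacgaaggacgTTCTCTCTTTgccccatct
Rpl11: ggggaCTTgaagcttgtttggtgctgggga
Rps2: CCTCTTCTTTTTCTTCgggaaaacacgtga
Rps3: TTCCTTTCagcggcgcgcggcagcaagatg
Rps6: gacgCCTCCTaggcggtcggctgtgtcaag
Rps12: gcacagaagCCCagcagagcgcttaaatac
These windows lie at chr12:46718376-46718405 on the minus strand for Rplp0, chr10:83519049-83519078 on the plus strand for Rpl19, chr14:43247575-43247604 on the plus strand for Rpl9 and chr5:153560788-153560817 on the minus strand for Rpl11. Those of the small subunit lie at chr10:14251833-14251862 on the plus strand for Rps2, chr1:163195762-163195791 on the minus strand for Rps3, chr5:106420526-106420555 on the minus strand for Rps6 and chr1:23500060-23500089 on the plus strand for Rps12. The build behind the deposited counts is not given in the sources used here, so the windows describe RefSeq's genes and not the deposited models.

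Of 81 member symbols of the 2 subunits, 62 matched a single promoter of the RefSeq table. A C or T stood at the annotated start in 41 of the 62 (66.1%), against 40.6% of all 33469 promoters. A run of 5 or more C or T from the start itself was found in 30 of the 62 (48.4%), against 4.75% of all promoters, and a run of 8 or more anywhere in the 30 bases in 39 (62.9%), against 11.4%. Both subunits had it, with 8 or more in 24 of 39 large and 15 of 23 small subunit symbols. Where a window holds no such run, this says only that these letters are not at the annotated start.

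With YEXX-2A, ribosomal protein mRNAs were higher than with vehicle in most cases, in both subunits. Of the 79 tested ribosomal protein models, 42 rose and 2 fell in edgeR's quasi-likelihood test at an adjusted p under 0.05, where 17.6% of all 11473 genes rose and 18.5% fell (36.1% in either direction). The 42 were 24 of 47 large subunit and 18 of 32 small subunit models, and both that fell, Rps2 and Rps3, were of the small subunit. The median log2 fold change was 0.31 over the 79 models (0.31 large, 0.29 small), against 0.007 over all genes tested. In 43 models all 3 YEXX-2A libraries lay above all 3 vehicle libraries, and in 3 below, where 25.3% and 26.3% of all genes did so.

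**Figure D1:**
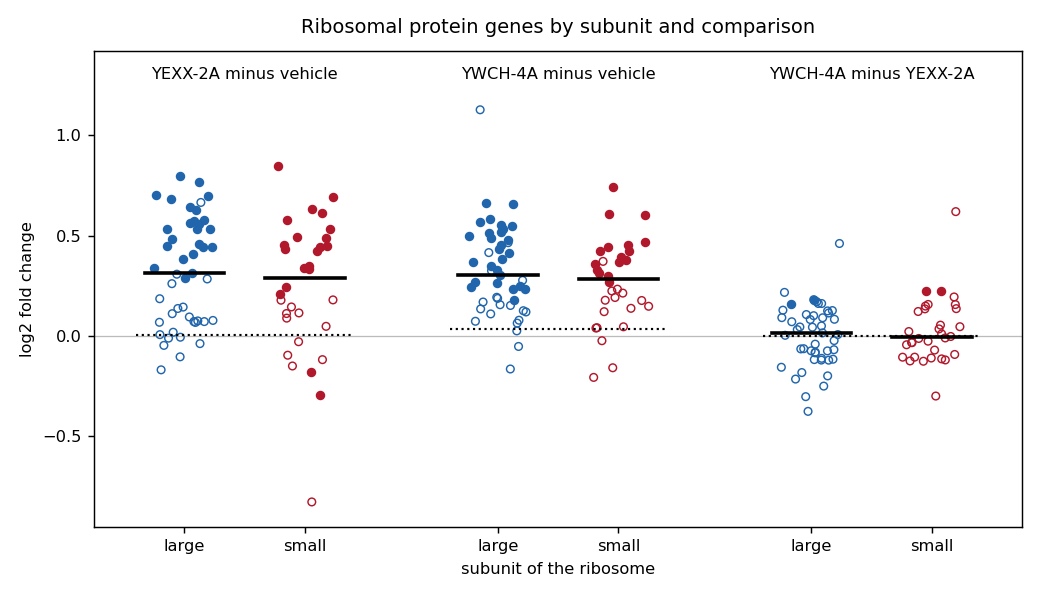
Log2 fold change (vertical axis) of each tested ribosomal protein gene model in the 3 comparisons, split by subunit (47 large in blue, 32 small in red). Filled points passed an adjusted p of 0.05, bars are medians and dotted lines the median of all 11473 genes. Both subunits sit above the dotted line in the comparisons with vehicle, with medians of 0.31 and 0.29 with YEXX-2A and of 0.30 and 0.29 with YWCH-4A, and around it between the compounds. The outlying open points are the second Rpl32 model, whose estimated counts ran from 0 to 328 with no order by group, and Rps18l1, with 25.1 counts or fewer in every library.

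The large subunit members with the smallest p-values in this comparison were both Rpl21 models, Rpl9, Rpl23a and Rpl31. Rpl9, a protein of the large subunit near the base of the stalk, had 351, 358 and 342 CPM in the YEXX-2A libraries, against 241, 200.5 and 263 CPM in the vehicle libraries, a log2 fold change of 0.58 ± 0.09 (SE; adjusted p = 0.00328). Rpl23a, which lies beside the tunnel through which the new chain leaves, had 475, 481 and 377 CPM with YEXX-2A, against 298, 244 and 287 CPM with vehicle (0.68 ± 0.11, adjusted p = 0.00344). Neither gene's groups overlapped, and in both the lowest of the 6 libraries was vehicle replicate 2. Rpl31, also at the tunnel exit, had 226, 209 and 188 CPM with YEXX-2A, against 154, 125 and 142 CPM with vehicle (0.57 ± 0.10, adjusted p = 0.00397). The Rpl21 models rose by 0.65 (ENSRNOG00000032803, adjusted p = 0.00257) and 0.80 (ENSRNOG00000000957, adjusted p = 0.00363) on the log2 scale. They share a symbol and have counts that are not whole, as where reads are split between copies, so each value is uncertain. The groups did not overlap in Rpl31 or in either Rpl21 model.

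Among small subunit members, Rps6 had the largest fold change of the called members in this comparison. Rps6, the protein that S6 kinase phosphorylates, had 371, 348 and 325 CPM in the YEXX-2A libraries, against 207, 146 and 227 CPM in the vehicle libraries (0.85 ± 0.14, adjusted p = 0.00373). Rps4x, the X-linked form of the S4 protein, had 730.3, 728 and 749 CPM with YEXX-2A, against 516, 388 and 537 CPM with vehicle (0.61 ± 0.10, adjusted p = 0.00389). In both genes the groups were well apart, and vehicle replicate 2 was the lowest library. Rps3a had 543, 609 and 524 CPM with YEXX-2A, against 353, 274 and 408 CPM with vehicle (0.69 ± 0.13, adjusted p = 0.00624). Rps13 had 269, 272 and 277 CPM with YEXX-2A, against 212, 188 and 210.4 CPM with vehicle (0.42 ± 0.07, adjusted p = 0.00283). Rps12 had 383, 382 and 351 CPM with YEXX-2A, against 292, 253 and 271 CPM with vehicle (0.45 ± 0.07, adjusted p = 0.00313). None of these 5 genes overlapped between the groups.

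Rps2 and Rps3, both near the channel where mRNA enters the small subunit, went the other way. Rps2, one of the most abundant members, had 1821, 1831 and 1925 CPM in the YEXX-2A libraries, against 2225, 2495 and 2116 CPM in the vehicle libraries (-0.29 ± 0.07, adjusted p = 0.0138). Rps3 had 606, 587 and 586 CPM with YEXX-2A, against 667, 725 and 625 CPM with vehicle (-0.18 ± 0.06, adjusted p = 0.0484). Neither overlapped, and vehicle replicate 2 was the highest library in both, where it was the lowest for the risen members named above. The fall of Rps3 passed the threshold in 7 of 20 alternative analyses, with adjusted p from 0.00712 to 0.159, and that of Rps2 in 17 of 20, with adjusted p from 3.27e-05 to 0.0652. The count of 44 called members was 25 without YEXX-2A replicate 1, 23 without YEXX-2A replicate 2 and 35 (33 higher, 2 lower) without vehicle replicate 2. The share of all genes called, 36.1% with every library, was 12.6%, 9.03% and 35.1% in these cases, and thus fell as well without either YEXX-2A library.

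With YWCH-4A, ribosomal protein mRNAs were also higher than with vehicle, again in both subunits. Of the 79 models, 43 rose, where 15.7% of all genes rose, and 0 fell, where 14.9% did (30.6% in either direction), at an adjusted p under 0.05 in edgeR. At an unadjusted p under 0.05, 55 were higher and 1 was lower, and DESeq2 called 44 higher and 0 lower. The 43 were 27 of 47 large subunit and 16 of 32 small subunit models. The median log2 fold change was 0.30 (0.30 large, 0.29 small), against 0.03 over all genes tested. All 3 YWCH-4A libraries lay above all 3 vehicle libraries in 63 models and below them in 1, where 24.9% and 21% of all genes did so. This comparison shares its vehicle libraries with the preceding one, so the likeness of the 2 counts is not independent.

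The large subunit members with the smallest p-values were Rpl11, Rpl9, Rpl19, 1 Rpl21 model and Rpl23. Rpl9 had 353, 399 and 361 CPM in the YWCH-4A libraries, against 241, 200.5 and 263 CPM in the vehicle libraries (0.66 ± 0.09, adjusted p = 0.000338). Rpl19, the second most abundant large subunit member per length, had 1088, 1157 and 1123 CPM with YWCH-4A, against 904, 756 and 864 CPM with vehicle (0.42 ± 0.07, adjusted p = 0.00141). Rpl23, which lies at the face between the subunits, had 533, 580.1 and 548 CPM with YWCH-4A, against 429, 354 and 410.2 CPM with vehicle (0.48 ± 0.09, adjusted p = 0.00198). No YWCH-4A library of these 3 genes reached down to a vehicle library. Rpl21 (ENSRNOG00000032803) rose by 0.54 on the log2 scale (adjusted p = 0.00192).

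In the small subunit the smallest p-values were those of Rps12, Rps13, Rps4x, Rps6 and 1 Rps19l2 model. Rps6 had 291, 359 and 322 CPM in the YWCH-4A libraries, against 207, 146 and 227 CPM in the vehicle libraries (0.74 ± 0.14, adjusted p = 0.00254). Rps4x had 709, 763 and 718 CPM with YWCH-4A, against 516, 388 and 537 CPM with vehicle (0.60 ± 0.10, adjusted p = 0.00139). Rps12 had 351, 391 and 367 CPM with YWCH-4A, against 292, 253 and 271 CPM with vehicle (0.44 ± 0.07, adjusted p = 0.000911). In these 3 genes every YWCH-4A library was above every vehicle library. Rps13 rose by 0.38 (adjusted p = 0.00137) and Rps19l2 (ENSRNOG00000037897) by 0.31 (adjusted p = 0.00533) on the log2 scale. Although named as a copy related to Rps19, the 2 models under this symbol held 99.8% of the counts of the S19 protein. The calls of Rps13 and of this Rps19l2 model were lost once the length trend was removed (adjusted p = 0.0826 and 0.111). Over their alternatives the adjusted p ran from 2.31e-06 to 0.0826 for Rps13 and from 6.28e-05 to 0.111 for Rps19l2. Rps2 had 2059, 2015 and 2056 CPM with YWCH-4A, against 2225, 2495 and 2116 CPM with vehicle, groups that did not overlap, and was not called (-0.16 ± 0.07, adjusted p = 0.111; called in 3 of 20 alternatives, 1 of them without vehicle replicate 3). The count of 43 called members was 25 without YWCH-4A replicate 2, where 21.2% of all genes were called, and 41 without vehicle replicate 2, where 39.4% were.

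**Figure D2:**
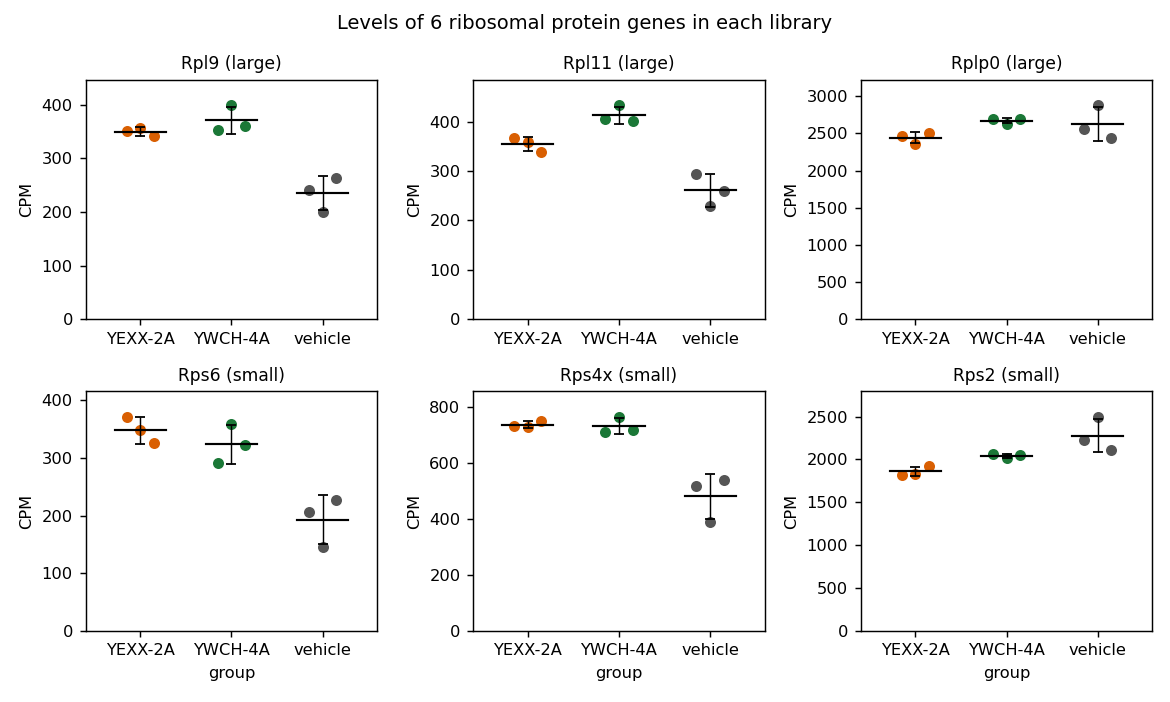
CPM (vertical axes, from 0) of 6 members in each library, by group, with the mean as a bar and the SD as whiskers (3 libraries per group). Rpl9, Rpl11, Rps6 and Rps4x have all compound libraries above all vehicle libraries. Rps2 has them below, and Rplp0 overlaps.

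Set directly against each other, the 2 compounds differed in few ribosomal protein mRNAs when 1 spread was shared over all 3 groups, vehicle included. Of the 79 models, 4 were higher with YWCH-4A and 0 lower at an adjusted p under 0.05 in edgeR, where 16.2% and 15.1% of all genes were (31.3% in either direction). At an unadjusted p under 0.05, 13 were higher and 2 lower, and DESeq2 called 5 higher and 0 lower. With only the 2 groups compared in the edgeR fit, 19 were higher and 2 lower, where 51.5% of all genes were called. The median log2 fold change was 0.008, against -0.0004 over all genes tested. The 95% interval of the difference lay within 0.5 log2 units of 0 in 71 of the 79 models and reached past it in 8. For Rps6 it ran from -0.41 to 0.21 and for Rpl9 from -0.12 to 0.29, so that neither is shown to be equal. In 21 models the YWCH-4A libraries lay wholly above the YEXX-2A libraries and in 1, Rps3a, below, where 29.9% and 29.1% of all genes did so.

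The 4 called members were Rpl10, Rpl3, Rps10 (ENSRNOG00000052141) and Rps19l2 (ENSRNOG00000037897). Rpl10, which joins the large subunit late in its assembly, had 954, 967 and 961 CPM in the YWCH-4A libraries, against 824, 845 and 876 CPM in the YEXX-2A libraries (0.18 ± 0.05, adjusted p = 0.0271). Rpl3, which reaches towards the site where amino acids are joined, had 1452, 1457 and 1464 CPM with YWCH-4A, against 1271, 1291 and 1353 CPM with YEXX-2A (0.16 ± 0.05, adjusted p = 0.0462). This Rps10 model, of a protein at the mRNA entry channel, had 89.9, 91.2 and 90.2 CPM with YWCH-4A, against 75.7, 80.4 and 76.3 CPM with YEXX-2A (0.22 ± 0.06, adjusted p = 0.0223). The groups did not overlap in these 3 genes, although the differences are under 0.25 log2 units. Rps19l2 had 180.2, 178 and 177 CPM with YWCH-4A, against 164, 149 and 145 CPM with YEXX-2A, again without overlap, and differed by 0.22 ± 0.07 (adjusted p = 0.0286). The other Rps10 model differed by 0.05 (95% interval -0.18 to 0.29) and the other Rps19l2 model by 0.12 (-0.05 to 0.30). Neither was called. With all models of a protein summed, edgeR called neither S10 (0.13 ± 0.06, adjusted p = 0.122) nor S19 (0.16 ± 0.07, adjusted p = 0.117). No member was called without any 1 of the 3 YWCH-4A libraries, 1 was called without YEXX-2A replicate 1 or without YEXX-2A replicate 2, and 8 without vehicle replicate 3. Without vehicle replicate 2, whose spread enters the shared estimate, 21 were called, 19 higher and 2 lower, where 51.6% of all genes were. The share of all genes called was 19.7 to 21.7% without a YWCH-4A library, 21.4% without YEXX-2A replicate 1, 19.2% without YEXX-2A replicate 2 and 33.7% without vehicle replicate 3.

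Summed over members, both subunits were higher in the compound libraries than in the vehicle libraries, the large subunit by slightly more. In CPM, the large subunit models summed to 21714, 21268 and 20358 in the YEXX-2A libraries, 21489, 22624 and 21887 in the YWCH-4A libraries and 19239, 18172 and 18345 in the vehicle libraries. The small subunit models summed to 14592, 14194 and 13707 CPM with YEXX-2A, 14187, 14876 and 14392 CPM with YWCH-4A and 13235, 12791 and 12632 CPM with vehicle. In both subunits every compound library lay above every vehicle library. The levels per length, from which the ratio was taken, differ more, on a scale where the median of all genes was itself 0.18 log2 units higher with YWCH-4A than with vehicle and 0.07 higher with YEXX-2A. The 51 large subunit models summed to 28812, 27992 and 25868 FPKM in the YEXX-2A libraries, 29399, 31426 and 29811 FPKM in the YWCH-4A libraries and 24002, 20679 and 22348 FPKM in the vehicle libraries. The 35 small subunit models summed to 21634, 20877 and 19592 FPKM with YEXX-2A, 21907, 23217 and 22097 FPKM with YWCH-4A and 18520.1, 16315 and 17306 FPKM with vehicle. On this scale too no compound library of either subunit was as low as a vehicle library. The ratio of large to small was 1.33, 1.34 and 1.32 with YEXX-2A, 1.34, 1.35 and 1.35 with YWCH-4A and 1.296, 1.27 and 1.29 with vehicle. It was thus higher in all 6 compound libraries than in the 3 vehicle libraries, by 0.05 log2 units with YEXX-2A and 0.07 with YWCH-4A, which is small beside the median rise of the members themselves. YWCH-4A libraries exceeded YEXX-2A libraries by 0.02 log2 units, with no overlap between 1.34198 to 1.35357 with YWCH-4A and 1.32036 to 1.34082 with YEXX-2A. The differences kept their sign when CPM was summed, when gene copies were left out and when each library's trend with gene length was removed. The difference between YEXX-2A and vehicle did not keep it when every model of a protein was counted. That count adds proteins such as L8 and S20, whose counts all lay outside the members. Summed so, in CPM, the ratio was not higher with YEXX-2A than with vehicle. The larger rise of the large subunit with YEXX-2A thus holds for the members alone. No test was made of this score over members.

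**Figure D3:**
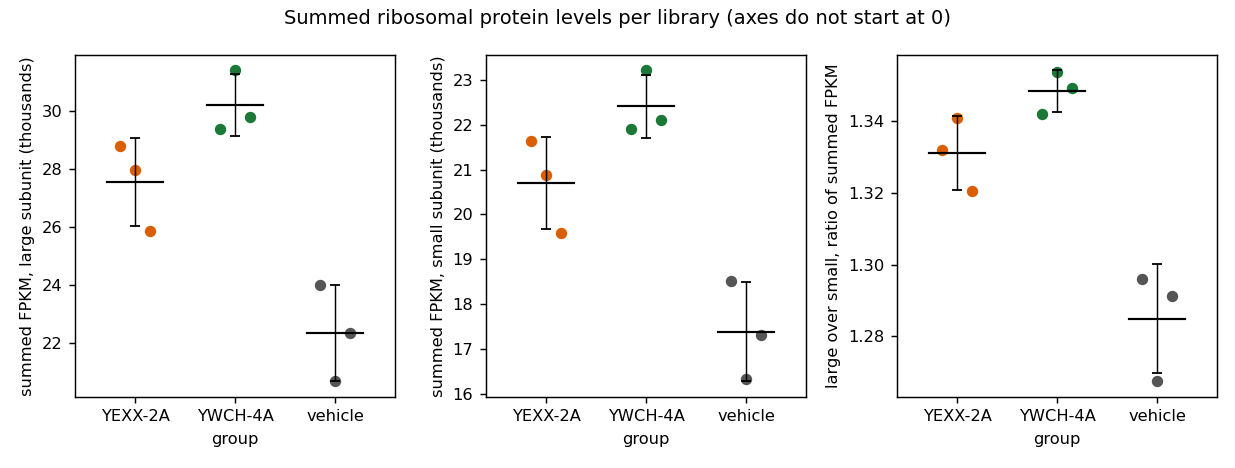
Summed FPKM of the large subunit models (left, in units of 1000), of the small subunit models (middle, in units of 1000) and their ratio (right) in each library, by group, with the mean as a bar and the SD as whiskers (3 libraries per group). None of the vertical axes starts at 0. The vehicle libraries are lowest in each panel, with ratios of 1.27 to 1.296.

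The members did not move as a block, and their differences varied with their level. The SD of the log2 fold changes over the 79 models was 0.30 with YEXX-2A and 0.22 with YWCH-4A, each against vehicle, and 0.16 between the compounds. These SDs include 2 poorly measured models. They are Rps18l1 (-0.83 with YEXX-2A, 0.62 between the compounds) and the second Rpl32 model (1.13 with YWCH-4A). Across the 79 models, Spearman's rho between log2 fold change and mean CPM was -0.43 for YEXX-2A and -0.35 for YWCH-4A, each against vehicle, as a description of models that share the same libraries. The 10 models with the most counts had a median log2 fold change of 0.04 with YEXX-2A and 0.16 with YWCH-4A, and the other 69 had 0.38 and 0.33. For YWCH-4A against YEXX-2A the relation had the opposite sign, with a rho of 0.35 and medians of 0.13 for the 10 and -0.02 for the other 69. Against vehicle, models with a pyrimidine run at the annotated start had no larger median than the others. Of the models with a single match, the 28 with a run of 5 or more had medians of 0.31 with YEXX-2A and 0.28 with YWCH-4A, and the 26 with a shorter run had 0.36 and 0.35. For YWCH-4A against YEXX-2A, the medians were 0.03 with the run and -0.005 with a shorter one, with 2 and 0 models called.

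**Figure D4:**
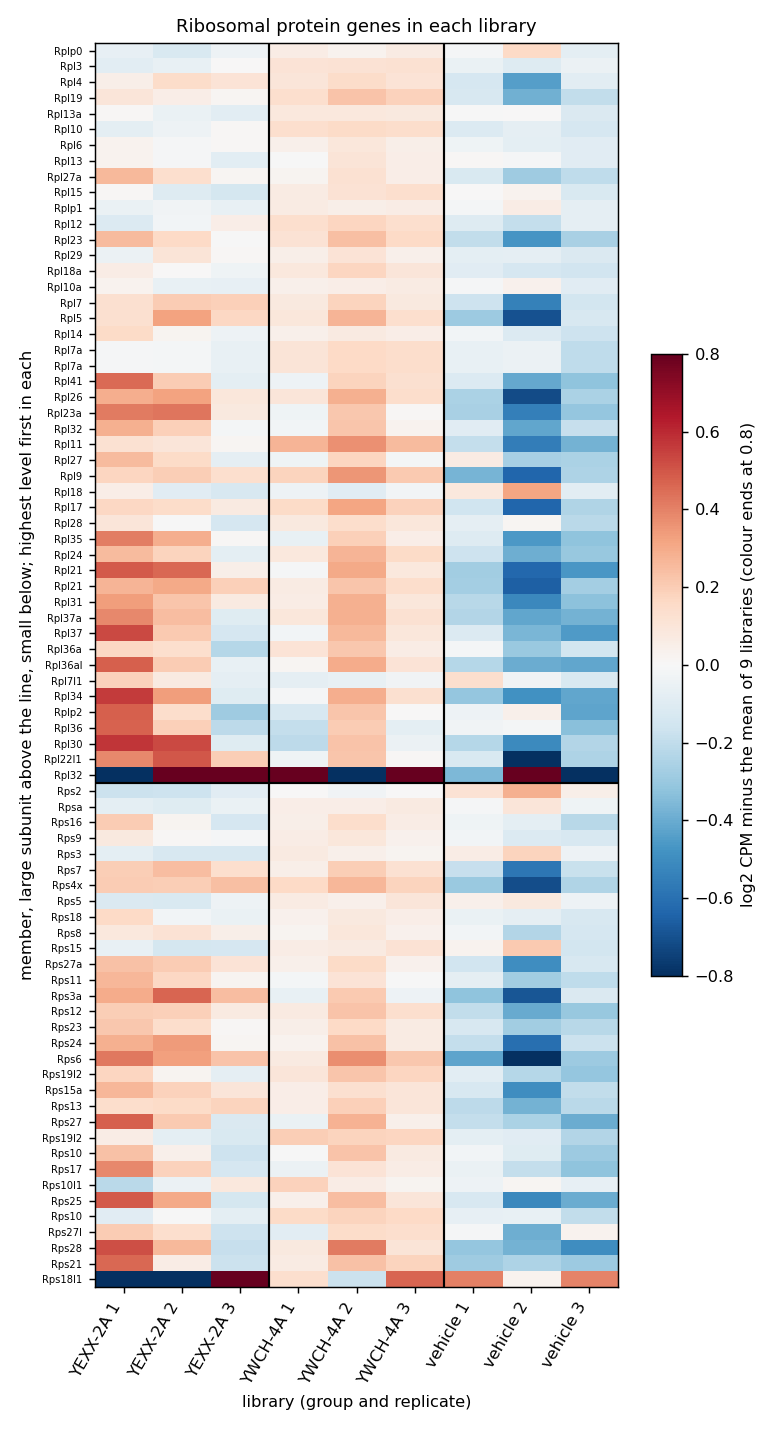
Log2 CPM of each tested ribosomal protein model minus its mean over the 9 libraries (colour, ends at 0.8), in the 3 libraries of each group (columns). Large subunit models are above the line and small subunit models below, each from the highest level to the lowest. Vehicle replicate 2 is the lowest column for many members and vehicle replicate 3 for many others. YEXX-2A replicate 3 is lower than the other 2 YEXX-2A libraries among the less abundant members, and the abundant members at the top of each block differ least.

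Among the members, shorter gene models had the larger rises against vehicle. Over the members, Spearman's rho between log2 fold change and model length, as implied by the deposited counts and FPKM, was -0.33 for YEXX-2A and -0.23 for YWCH-4A, each against vehicle (79 models), and 0.36 for YWCH-4A against YEXX-2A. Over the 10755 other genes with a length, it was 0.06 for YEXX-2A and -0.08 for YWCH-4A, each against vehicle, and -0.12 between the compounds, so the other genes showed no like trend over their whole range. The 22 members under 500 nt had medians of 0.47 with YEXX-2A and 0.36 with YWCH-4A, and the 44 members of 500 to 1000 nt had 0.17 and 0.26. By library, the median deviation of the 22 from each model's mean log2 CPM was 0.46, 0.20 and -0.10 in YEXX-2A replicates 1 to 3. It was -0.01, 0.22 and 0.09 in the YWCH-4A replicates and -0.11, -0.32 and -0.32 in the vehicle replicates. YEXX-2A replicate 3 was thus about level with vehicle replicate 1 for these short members. Of genes that are not members, the 160 under 500 nt had medians of 0.20 with YEXX-2A and 0.23 with YWCH-4A, the 896 of 500 to 1000 nt had 0.02 and 0.12, and the 1821 over 4000 nt had 0.10 and 0.002. Among those 160, the same deviation was 0.28, 0.14 and -0.14 in YEXX-2A replicates 1 to 3. It was -0.01, 0.21 and 0.05 with YWCH-4A and -0.06, -0.17 and -0.20 with vehicle. Short models thus varied between the YEXX-2A libraries, and the cause was not tested. When each library's trend with length among the other genes was removed, an alternative chosen after seeing the data, 38 members were higher and 3 lower with YEXX-2A (median 0.21), and 23 were higher and 2 lower with YWCH-4A (median 0.15), where 37.5% and 29.96% of all genes were called. The 2 lower with YWCH-4A were Rps2, at -0.25 (adjusted p = 0.0458; 0.0137 to 0.766 over its alternatives), and Rpl18, named after its values were seen. Rps6, Rps4x, Rpl9, Rpl11, Rps12, Rpl31 and both Rpl21 models were called higher with each compound under this alternative too. Between the compounds it left 0 higher and 2 lower, Rpl23a and Rpl30, the second also named after its values were seen. The part of length in these results beyond this was not tested.

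**Figure D5:**
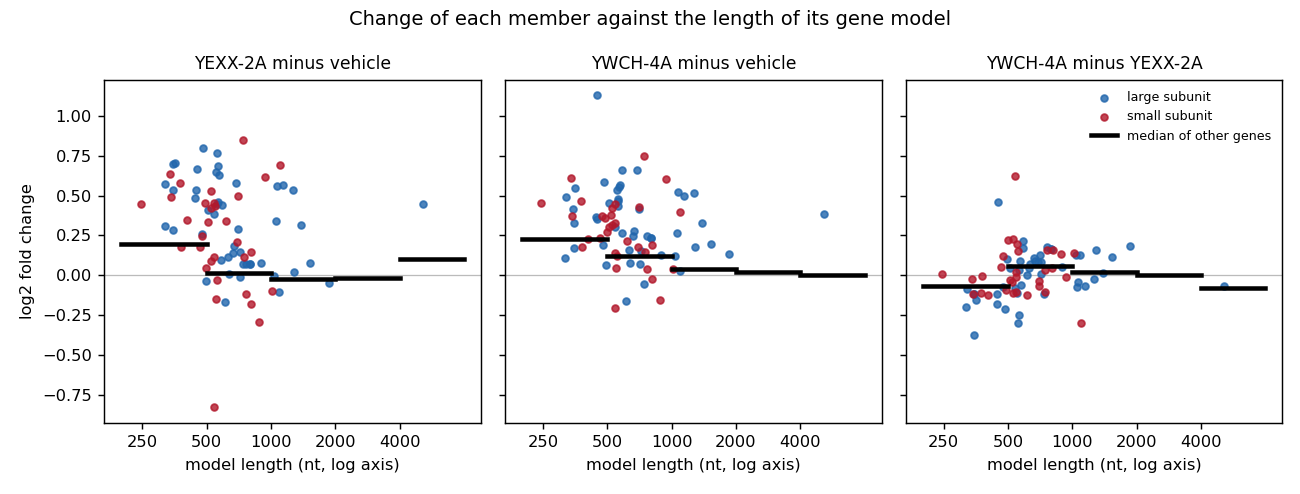
Log2 fold change of each tested member (points, large subunit blue, small subunit red) against the length of its gene model in nt (log axis), for the 3 comparisons. Black bars are the medians of the other genes in 5 length classes, the first and last drawn to the edge of the plotted range. Against vehicle the other genes under 500 nt have medians of 0.20 with YEXX-2A and 0.23 with YWCH-4A, and most members of that length lie above them.

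Elongation factors bind at the ribosomal stalk. Of its 4 members, Rplp0, Rplp1, Rplp2 and Rpl12, edgeR called 0 with YEXX-2A and 1, Rpl12, with YWCH-4A, each against vehicle, and at an unadjusted p under 0.05 these counts were also 0 and 1. Over all genes, edgeR called 36.1% with YEXX-2A and 30.6% with YWCH-4A in either direction, so counts over 4 genes do not set the stalk apart. Rplp0 had 2462, 2364 and 2505 CPM in the YEXX-2A libraries, 2689.8, 2630.1 and 2699.9 CPM in the YWCH-4A libraries and 2558, 2878 and 2439 CPM in the vehicle libraries. Rplp1 had 555, 564 and 553 CPM with YEXX-2A, 602, 594 and 599 CPM with YWCH-4A and 569, 599 and 548 CPM with vehicle. In both genes the vehicle libraries overlapped those of each compound, and all YWCH-4A libraries were above all YEXX-2A libraries, with a difference called in 4 of 20 alternatives for each gene, 1 of them without vehicle replicate 2. Against vehicle, limma-trend on log2(FPKM + 1) called both higher with YWCH-4A (0.20 and 0.24, adjusted p = 0.0106 and 0.00207), on a scale where the median of all genes was 0.18. Rpl12, at the stalk base, had 526, 557 and 588 CPM with YEXX-2A, 623, 638 and 622 CPM with YWCH-4A and 528, 497 and 539 CPM with vehicle, and rose by 0.27 ± 0.06 with YWCH-4A (adjusted p = 0.00729; 4.31e-05 to 0.363 over its alternatives, lost once the length trend was removed). Rplp2, the second acidic stalk protein, had log2 fold changes of 0.29 ± 0.19 with YEXX-2A and 0.17 ± 0.19 with YWCH-4A, on a model that held 5.84% of the counts of its protein. Rpsa likewise overlapped with vehicle in its YWCH-4A libraries, at 1684, 1679 and 1707 CPM with YWCH-4A against 1608, 1733 and 1584 CPM with vehicle, and had 1535, 1514 and 1562 CPM with YEXX-2A, all below vehicle but not called (-0.10 ± 0.06, adjusted p = 0.199). Rps18 had 682, 602 and 588 CPM with YEXX-2A, 624, 644 and 634 CPM with YWCH-4A and 589, 581 and 558 CPM with vehicle, and was called in neither comparison.

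Rpl5 and Rpl11, which form a complex with 5S ribosomal RNA and, when not built into ribosomes, bind the p53 regulator Mdm2, rose with both compounds. Rpl11 had 366, 359 and 339 CPM in the YEXX-2A libraries, 405, 433 and 400.1 CPM in the YWCH-4A libraries and 295, 229 and 259 CPM in the vehicle libraries. Its log2 fold change was 0.44 ± 0.09 with YEXX-2A (adjusted p = 0.00695) and 0.66 ± 0.09 with YWCH-4A (adjusted p = 0.000204), each against vehicle. Every compound library was above every vehicle library. Rpl5 had 472, 539 and 484 CPM with YEXX-2A, 459, 519.7 and 474 CPM with YWCH-4A and 353, 266 and 394 CPM with vehicle. It rose by 0.56 ± 0.12 with YEXX-2A (adjusted p = 0.0107) and 0.52 ± 0.12 with YWCH-4A (adjusted p = 0.00865), again without overlap. Between the compounds, Rpl11 differed by 0.22 ± 0.09 (adjusted p = 0.0771) and Rpl5 by -0.04 ± 0.12 (adjusted p = 0.831), and neither was called. Without vehicle replicate 2 the adjusted p of Rpl11 in that comparison was 0.00143, and it was called in 5 of 20 alternatives (adjusted p from 0.000808 to 0.209). The rise of Rpl5 with YEXX-2A was not called without YEXX-2A replicate 2 (adjusted p = 0.052; 0.000204 to 0.052 over its alternatives).

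The paralogue list includes Rps4x, described above, which codes for the core S4 protein itself and was by far the highest. The other members on that list lay at 92.8 CPM or less in every library. Rpl36al, a copy of Rpl36a, had 92.8, 76.5 and 63.7 CPM in the YEXX-2A libraries, 67.1, 81.8 and 71.7 CPM in the YWCH-4A libraries and 56.7, 50.5 and 49.8 CPM in the vehicle libraries, and rose with YEXX-2A (0.57 ± 0.13, adjusted p = 0.0119) and with YWCH-4A (0.49 ± 0.13, adjusted p = 0.0153). Rpl22l1, a paralogue of Rpl22, had 29.3, 31.8 and 25.7 CPM with YEXX-2A, 21.9, 26.2 and 22.5 CPM with YWCH-4A and 20.5, 11.6 and 18.7 CPM with vehicle. It was called with YEXX-2A (0.77 ± 0.18, adjusted p = 0.0132) and not with YWCH-4A (0.47 ± 0.18, adjusted p = 0.074), and the difference between the compounds was not called either (-0.30 ± 0.17, adjusted p = 0.211). Neither gene's compound libraries reached down to its vehicle libraries. Without vehicle replicate 2 Rpl36al was called with neither compound (adjusted p = 0.0563 with YEXX-2A and 0.0894 with YWCH-4A), nor with YWCH-4A without its replicate 2 (0.0744), and over its alternatives the adjusted p ran from 0.000688 to 0.0563 with YEXX-2A and from 0.00384 to 0.0894 with YWCH-4A. Rpl22l1 was not called with YEXX-2A without YEXX-2A replicate 2 (adjusted p = 0.0587, from 0.000197 to 0.0587 over its alternatives), and it was called with YWCH-4A without vehicle replicate 1 (0.0363) and between the compounds without vehicle replicate 2 (0.00864). Rps27l, a paralogue of Rps27, had log2 fold changes of 0.18 ± 0.13 with YEXX-2A and 0.18 ± 0.13 with YWCH-4A, and Rpl7l1 of 0.07 ± 0.09 and -0.05 ± 0.09, with overlapping groups. Rpl3l, Rpl39l and Rps4y2 had 4 counts or fewer in every library, and Rpl10l and Rpl26l1 were not among the members. Rps19bp1, which is no ribosomal protein, had 27.4, 24.0 and 20.0 CPM with YEXX-2A, 25.991, 22.3 and 24.1 CPM with YWCH-4A and 24.0, 27.9 and 20.8 CPM with vehicle, and its groups overlapped in each comparison.

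Reads of ribosomal protein genes can be shared with many near-identical copies, and this bears on single members. Of the members' counts, 49.1% were not whole numbers, against 8.87% of all counts, as an estimator that splits reads between copies gives. Both Rpl7a models had identical values in every library and are 1 measurement. The table held another 108 models with counts that it names as a cytosolic ribosomal protein under a symbol outside the rule. The members held 85.6% of all counts of the 84 proteins counted in this way, and for 16 proteins the models outside the rule held most of the counts, so that Rpl38, Rpl39 and Rps29 were near 0 while their proteins were not. With all models of a protein summed, an alternative chosen after seeing the data, S29 had 194, 152 and 114 CPM in the YEXX-2A libraries, 121, 153 and 134 CPM in the YWCH-4A libraries and 110.1, 89.5 and 88.1 CPM in the vehicle libraries. In that count 47 of 81 proteins were higher and 2 lower with YEXX-2A, 43 higher and 0 lower with YWCH-4A, and 2, L10 and L3, higher between the compounds. In the fit of single models, 36.1%, 30.6% and 31.3% of all genes were called in these comparisons, in either direction. Rps6 held 59.7% of the counts of its protein, and the sum of S6 rose by 0.83 ± 0.13 with YEXX-2A (adjusted p = 0.00275) and 0.69 ± 0.13 with YWCH-4A (adjusted p = 0.00204).

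Other mRNAs with a terminal oligopyrimidine tract, translation factors for the most part, were called higher in 8 and lower in 3 of 20 tested with YEXX-2A, and higher in 4 and lower in 1 with YWCH-4A, each against vehicle. The 20 are gene models and stand for 19 genes. Over all genes 17.6% were higher and 18.5% lower with YEXX-2A and 15.7% higher and 14.9% lower with YWCH-4A, so that the 4 of 20 with YWCH-4A are near the share of all genes. The medians of the list were 0.20 and 0.14. Eef1a1, which brings aminoacyl-tRNA to the ribosome, had 4795, 5133 and 5049 CPM in the YEXX-2A libraries, 4889, 5209.7 and 5085 CPM in the YWCH-4A libraries and 3947, 3236 and 4069 CPM in the vehicle libraries, and rose with YEXX-2A (0.41 ± 0.09, adjusted p = 0.009) and YWCH-4A (0.43 ± 0.09, adjusted p = 0.00333). Tpt1 had 649, 687 and 584 CPM with YEXX-2A, 484, 564 and 500.5 CPM with YWCH-4A and 416, 305 and 435 CPM with vehicle (0.73 ± 0.12 and 0.42 ± 0.12, adjusted p = 0.00387 and 0.0248). In both genes the compound libraries lay above the vehicle libraries. Npm1, a nucleolar chaperone of ribosome assembly, rose with YEXX-2A (0.86 ± 0.19, adjusted p = 0.0115) and was lower with YWCH-4A than with YEXX-2A (-0.61 ± 0.19, adjusted p = 0.0324). Eif3f was higher with YWCH-4A than with YEXX-2A (0.46 ± 0.08, adjusted p = 0.00228), and 2 of the 20 were called in each direction between the compounds, a smaller share than the 16.2% higher and 15.1% lower of all genes. Rack1 was near the floor, at 1.32 CPM or less in every library.

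Genes of ribosome assembly, many of which work in the nucleolus, were called lower more often than higher with YWCH-4A. Of 35 tested, 6 were higher and 3 lower with YEXX-2A (median 0.06), and 0 higher and 11 lower with YWCH-4A (median -0.16), each against vehicle, with 0 higher and 15 lower at an unadjusted p under 0.05 in the second case. Over all genes 17.6% were higher and 18.5% lower with YEXX-2A and 15.7% higher and 14.9% lower with YWCH-4A, so that the 6 of 35 with YEXX-2A are at the share of all genes. Set directly against YEXX-2A, YWCH-4A had 1 higher and 15 lower (median -0.30), where 16.2% and 15.1% of all genes were. Nolc1 had 214, 212 and 207 CPM in the YWCH-4A libraries, against 283, 313 and 274 CPM in the vehicle libraries (-0.46 ± 0.07, adjusted p = 0.000345). Polr1b, a subunit of the polymerase that makes ribosomal RNA, had 26.1, 24.2 and 24.0 CPM with YWCH-4A, against 34.4, 42.9 and 36.4 CPM with vehicle (-0.61 ± 0.10, adjusted p = 0.000738). Bysl, which acts in small subunit assembly, fell by 0.66 and Utp4 by 0.48 on the log2 scale with YWCH-4A (adjusted p = 0.000387 and 0.0014). With YEXX-2A, Ncl (0.68 ± 0.18, adjusted p = 0.019) and Nop56 (0.29 ± 0.08, adjusted p = 0.0237) rose and Dkc1 (-0.44 ± 0.10, adjusted p = 0.0135) and Fbl (-0.21 ± 0.06, adjusted p = 0.0241) fell. Nop58 was lower with YWCH-4A than with YEXX-2A, at 19.7, 22.1 and 16.4 CPM with YWCH-4A against 35.7, 50.3 and 35.1 CPM with YEXX-2A (-1.06 ± 0.19, adjusted p = 0.002).

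Of 16 tested genes that act on the production or translation of ribosomal proteins, 0 rose and 6 fell with YEXX-2A, and 1 rose and 6 fell with YWCH-4A, each against vehicle. The shares over all genes were 17.6% higher and 18.5% lower with YEXX-2A, and 15.7% higher and 14.9% lower with YWCH-4A. Myc, a transcription factor that drives ribosome production, had 149, 159 and 166 CPM in the YEXX-2A libraries, 82.4, 81.9 and 87.2 CPM in the YWCH-4A libraries and 209, 246 and 209.8 CPM in the vehicle libraries. Its log2 fold change was -0.49 ± 0.08 with YEXX-2A (adjusted p = 0.00306) and -1.403 ± 0.08 with YWCH-4A (adjusted p = 3.60e-07), so that it was lower in the libraries in which most members were higher. Eif4ebp1, a target of mTOR that holds back cap-dependent translation, had 66.2, 63.2 and 62.9 CPM with YEXX-2A, 45.4, 45.6 and 45.5 CPM with YWCH-4A and 84.4, 96.3 and 77.9 CPM with vehicle. It fell with YEXX-2A (-0.43 ± 0.08, adjusted p = 0.00612) and with YWCH-4A (-0.92 ± 0.08, adjusted p = 1.09e-05). Sesn2, which restrains mTOR when amino acids are short, fell with YWCH-4A (-1.41 ± 0.12, adjusted p = 7.60e-06), as did Deptor, an mTOR inhibitor (-1.36 ± 0.23, adjusted p = 0.00116). Rptor, a subunit of an mTOR complex, fell with YEXX-2A (-0.38 ± 0.08, adjusted p = 0.00993), as did Akt1s1 (-0.43 ± 0.10, adjusted p = 0.0134). Protein levels and translation were not analysed here. At an unadjusted p under 0.05, 3 of the 16 were higher and 7 lower with YEXX-2A.

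Other signals moved with the groups and are given here as values, and their part in the results was not tested. The 13 protein-coding genes of the mitochondrial genome summed to 23286 to 26471 CPM in the YEXX-2A libraries, 17692 to 18764 CPM in the YWCH-4A libraries and 15872 to 21291 CPM in the vehicle libraries. Of these 13, 8 rose with YEXX-2A, where 17.6% of all genes rose, and 1 fell with YWCH-4A, where 14.9% fell, each against vehicle. Set directly against YEXX-2A, 11 were lower with YWCH-4A, where 15.1% of all genes were. Fibroblast markers summed to 32368 to 35624 CPM with YEXX-2A, 10671 to 11588 CPM with YWCH-4A and 43011 to 55926 CPM with vehicle, sums made up mostly by Col1a1, Col3a1 and Vim. Pdgfra of the same list, named after its values were seen, had 179, 186 and 187 CPM with YEXX-2A, 297, 286 and 291 CPM with YWCH-4A and 186, 157 and 197 CPM with vehicle, and so went the other way with YWCH-4A (0.69 ± 0.08 against vehicle, adjusted p = 7.25e-05). The kidney epithelial list summed to 1515 to 1602 CPM with YEXX-2A, 916 to 964 CPM with YWCH-4A and 1785 to 2298 CPM with vehicle, with 4 of its 10 genes at 0 in all libraries and the sum made up by Krt8 and Aqp1. The leukocyte list summed to 41.8 to 45.5 CPM with YEXX-2A, 66.2 to 73.7 CPM with YWCH-4A and 47.5 to 62.9 CPM with vehicle, nearly all of it Cd68, and the endothelial list to 4.32 CPM or less in every library.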

How the data were processed

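Oligo(dT)-selected mRNA was sequenced from 9 libraries, 3 per group, after NEBNext Ultra library preparation, per the labels' protocols. The deposited table gives estimated counts and FPKM per gene model for each library. The submitters' processing notes name StringTie 1.3.1, RSEM, DESeq2 and edgeR with no role or order, and the aligner, build and annotation are not given in the sources used here. The authors' estimated counts need not be whole, since reads shared by near-identical copies are split between models, and were rounded here. The FPKM values are as deposited by the authors, and model lengths were implied from counts and FPKM.

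Genes passing filterByExpr (minimum count 10; 11473 genes) were fitted together over the 3 groups with edgeR 4.0.16 (TMM factors, robust quasi-likelihood test, R 4.3.3), after a run on simulated counts, with Benjamini-Hochberg adjustment over all of them and a threshold of 0.05. Each ± beside a log2 fold change is its standard error. A member is called where it passes that threshold. limma 3.58.1 and DESeq2 1.42.0 gave alternatives. Members and gene lists were chosen with earlier results of these data known. Genes named were, per comparison and subunit, up to 5 called members with the smallest p in each direction, the 3 members of each subunit with the highest mean FPKM, the stalk, 5S complex and paralogue lists with Rps19bp1, and up to 4 called genes of each other list. Tpt1, Npm1 and others of those lists are given in further comparisons once named in 1. Promoters and starts came from RefSeq (GRCr8).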

Additional observations from a re-analysis of the deposited data

How the results depend on the processing

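No named gene called in the analysis reported, and neither median against vehicle, changed sign under the alternatives run for it. The median between the compounds, 0.008, ran from -0.03 to 0.11. For YEXX-2A against vehicle, 44 of 79 members were called, and leaving out each library in turn gave 23 to 46. For YWCH-4A against vehicle, 43 were called, and leaving out each library gave 25 to 45. There limma-trend on log2(FPKM + 1) called 70, with a median log2 fold change of 0.47 where the median of all genes was 0.18, and removing the length trend called 25. Between the compounds 4 were called, and leaving out each library gave 0 to 21. That count was 2 with DESeq2 size factors, 30 (20 higher, 10 lower) with limma-voom and library quality weights, 21 with limma-trend, 21 (19 higher, 2 lower) with only the 2 groups compared, 2 (0 higher, 2 lower) with the length trend removed, 2 with models of a family summed and 2 with all models of a protein summed. In the settings with 30, 21 and 21 calls, 56.3%, 35.8% and 51.5% of all genes were called, more than of the members in each. These causes were not tested. The deviations of libraries with the same replicate number had correlations from -0.27 to 0.08, and those with different numbers from -0.20 to 0.23. With 3 libraries per group, this cannot show whether a number marks a shared batch. With the replicate number as a block, 36 were called with YEXX-2A and 35 with YWCH-4A, each against vehicle, and 1 between the compounds. The share of all genes called was then 16.8%, 24.3% and 22.8%, against 36.1%, 30.6% and 31.3% in the analysis reported. In the analysis reported, the 95% intervals of members reached a median of 0.20 log2 units to either side. Smaller differences were mostly not called, though Rpl10 (0.18) and Rpl3 (0.16) were called between the compounds.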
